A study of Macaca fascicularis with 6 samples.

Results

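Interferon-γ and tumour necrosis factor (TNF), together with the subunits of their receptors, were measured by single-cell RNA-seq in the lung of cynomolgus monkeys (Macaca fascicularis), in control animals and in a model of allergic asthma. The group of genes is IFNG, its receptor subunits IFNGR1 and IFNGR2, TNF, and the TNF receptors TNFRSF1A and TNFRSF1B. The members were the rows of each gene list that carry these symbols, and all 6 were found, each in 1 of the 28623 rows (IFNG is ENSMFAG00000043748, IFNGR1 ENSMFAG00000003984, IFNGR2 ENSMFAG00000001717, TNF ENSMFAG00000040286, TNFRSF1A ENSMFAG00000042238 and TNFRSF1B ENSMFAG00000043313). All animals were males of 3 to 5 years. The 3 control monkeys (replicates 1, 2 and 3) were given saline, and the 3 asthma monkeys (replicates 8, 10 and 11) were sensitised to antigen of the roundworm Ascaris suum by injection under the skin with an adjuvant and then challenged with the antigen through the nose. One library was made from the dissociated lung of each monkey, so that the library is the replicate throughout. No adjuvant is named for the controls, so that effects of the antigen and of the adjuvant cannot be told apart.

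Interferon-γ is a cytokine secreted mainly by T and NK cells. It binds a receptor made of the ligand-binding chain IFNGR1 and the signalling chain IFNGR2, through which the kinases JAK1 and JAK2 pass the signal on. TNF is made by activated macrophages, monocytes and lymphocytes as a membrane protein that is cut loose by ADAM17. It acts through TNFRSF1A, which carries a death domain and is present on most cells, and through TNFRSF1B, which lacks that domain and is known mainly from leukocytes and endothelium. Both cytokines are known for activating macrophages and endothelium in the inflamed lung.

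The libraries held 40556102, 33210436 and 32240293 UMIs (unique molecular identifiers, each standing for 1 captured RNA molecule) in controls 1, 2 and 3, and 41184329, 41489879 and 29014556 in asthma 8, 10 and 11. After filters on genes, UMIs and mitochondrial UMIs, 4339, 3200 and 3902 control cells and 4136, 4620 and 4038 asthma cells remained, 24235 of 35133 barcodes. In these cells TNFRSF1B was counted 31722 times, IFNG 25095 times, IFNGR1 21855 times, IFNGR2 18900 times and TNFRSF1A 12685 times, whereas TNF was counted only 2944 times, so that its values are the least precise. Cells were clustered and named by marker genes, and each name ends in "-like" because it rests on those markers alone. T and NK-like cells were the largest class, with 10238 cells (42.2%), followed by macrophage-like (3426), monocyte-like (2024), granulocyte-like (1637), fibroblast and muscle-like (1290), endothelial-like (1027), B-like (986), epithelial-like (916), mesothelial-like (622), dendritic-like (384), plasma-like (141) and mast-like cells (114). Another 1430 cells stood in sub-clusters that carried markers of a second class, most often of T and NK cells. They were taken out of the named classes and are called the unnamed cells.

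One library stood apart from the rest in its makeup. In asthma 11, T and NK-like cells made up 26.4% of the cells, against 42.2% to 48.4% in the other 5 libraries, and monocyte-like cells made up 20.7%, against 2.86% to 10.4%. Within its T and NK-like cells, CD4 T-like cells were 41.9%, against 9.01% to 20.7% elsewhere. Without it, 14 of the 97 estimates for the members described below changed sign, and the value without it is given beside those of them that are printed. Levels are given in CPM, the usual depth-scaled unit, in which the UMIs of a gene are divided by all UMIs of the same library and class. For the genes called in endothelial-like cells, the library scaling of the edgeR fit was used instead. Levels were compared between cells and groups for 1 gene at a time and not between genes. Groups of 3 libraries without overlap have an exact permutation p of 0.1, and how many of all genes show this was not counted. Of the cells kept, 75 barcodes occurred in 2 or more libraries, at most 11 for any pair.

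IFNG was carried almost entirely by lymphocytes. The T and NK-like cells held 90.3% of all IFNG UMIs, with a lowest value of 87.4% in control 2 and a highest of 94.5% in control 1. In this class the IFNG level was 577, 611 and 524 CPM in controls 1, 2 and 3, and 616, 672 and 289 CPM in asthma 8, 10 and 11. No other named class overlapped that range, since the next, B-like cells, ran from 18.2 to 89.0 CPM with a median of 45. The unnamed cells, set aside for their markers of a second class, held 6.97% of the IFNG UMIs. The median was 10.9 CPM in granulocyte-like cells, 9.63 CPM in dendritic-like cells, 6.61 CPM in monocyte-like cells and 2.21 CPM in macrophage-like cells, and from B-like cells downward each neighbour in this order overlapped the next. Granulocyte-like cells had a median of about 1000 UMIs a cell (1019 in control and 994 in asthma animals), so that 3 UMIs of IFNG in control 3 correspond to 32.0 CPM, and low levels cannot be read there.

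The IFNG of the other classes was set beside their transcripts of T and NK cells. Per 100 UMIs of the T and NK markers, T and NK-like cells held 6.61 UMIs of IFNG, B-like cells 7.06, dendritic-like cells 6.11 and the unnamed cells 7.55. The ratio was higher in epithelial-like (18.2), granulocyte-like (18.0), fibroblast and muscle-like (16.4), plasma-like (14.2), mesothelial-like (13.2) and monocyte-like cells (10.0), each of which had 14 to 85 UMIs of IFNG, and lower in endothelial-like (2.23) and mast-like cells (3.82). Of the 11 T and NK markers in the files, 10 had a UMI in B-like cells, where NKG7 was the most abundant with 25.4% of their UMIs. In B-like cells the summed level of these markers was 573, 878 and 939 CPM in the control libraries and 565, 440 and 514 CPM in the asthma libraries. Macrophage-like cells held 2.99 UMIs of IFNG per 100 marker UMIs, and 78.7% of their marker UMIs were of IL7R. In endothelial-like cells IL7R made up 63.1% of the marker UMIs, so that the low ratios of both classes rest largely on this 1 marker. Sub-clusters with T and NK markers had been taken out of several of these classes beforehand. The part of stray lymphocyte RNA or of mixed droplets in the IFNG of these classes was not tested.

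Among lymphocytes, the highest IFNG levels were in CD8 T-like cells, with 841, 819 and 815 CPM in the controls and 769, 849 and 441 CPM in the asthma animals. Neither CD8A nor CD8B was among the markers that gave any sub-cluster this name. The sub-clusters of 1160 and 867 cells rested on CD3D, CD3E and CD3G alone, which all T cells share, and the others also on GZMK or CRTAM. The name is therefore weak wherever it is used here. NK-like cells followed, with 738, 674 and 568 CPM in the controls and 520, 683 and 470 CPM in the asthma animals. These ranges overlapped, whereas CD4 T-like cells lay below both at 149 to 220 CPM in the 6 libraries. Proliferating lymphocytes had 517, 379 and 394 CPM in the controls and 366, 345 and 290 CPM in the asthma animals. Regulatory T-like cells, which are known to restrain immune responses and of which there were only 80, had 101.7, 36.8 and 106 CPM in the controls and no IFNG UMI in asthma 10 and 11, where 3 UMIs would be 35.9 and 70.4 CPM. Asthma 8 had only 6 of these cells, too few for a level, but held some of their 21 IFNG UMIs. In all, 5356 of the 10238 T and NK-like cells (52.3%) had an IFNG UMI, with a median of 3 and a highest value of 78 UMIs among those cells. The tenth of cells with the most IFNG held 51.5% of its UMIs, so that its expression was spread unevenly over the class.

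TNF was found mainly in myeloid cells and lymphocytes. T and NK-like cells held 37.3% of its UMIs, macrophage-like cells 24.5%, monocyte-like cells 13.2% and dendritic-like cells 10.1%, although the last were 1.58% of the cells. Control 3 gave 215 of the 296 TNF UMIs of the dendritic-like cells, and without it their share was 3.87%. Its level had a median of 32.7 CPM in dendritic-like cells (9.58 to 80.6), 25.5 CPM in monocyte-like cells (15.7 to 39.0), 25 CPM in T and NK-like cells (14.1 to 38.7), 14.3 CPM in B-like cells (10.2 to 55.5) and 8.99 CPM in macrophage-like cells (3.49 to 19.8). Each of these classes overlapped its neighbours in the order. Endothelial-like cells had 19 TNF UMIs, of which 16 were in 2 cells of asthma 8 (15.5 CPM there, and at most 2.67 CPM in each other library). Fibroblast and muscle-like cells had 1 TNF UMI in 1290 cells, and plasma-like cells had none in 141, where 3 UMIs would be 5.25 CPM in the deepest library and 28.6 CPM in the shallowest.

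Among the subtypes of monocytes, nonclassical monocyte-like cells patrol the vessel wall. Their TNF level was 36.7, 71.1 and 61.1 CPM in the controls and 42.5, 95.8 and 29.1 CPM in the asthma animals. In classical monocyte-like cells it was 6.93 to 30.7 CPM, lower than in the nonclassical cells of the same library in all 6 libraries. Over all libraries together, the 170 cells of the type 1 dendritic-like cluster, which is known for presenting antigen to CD8 T cells, had a TNF level of 86.2 CPM and held 232 of the 296 TNF UMIs of the dendritic-like class. Most of these cells came from control 3, which gave 113 of the 170. In the 4 libraries with enough of them, their TNF level was 43.6, 25.9 and 106.7 CPM in the controls and 58.0 CPM in asthma 8, above the nonclassical monocyte-like cells of the same library in 3 of 4. The monocyte subtypes of asthma 11 stood in other sub-clusters than those of the other libraries. Of its 342 classical monocyte-like cells 336 were in a sub-cluster with 344 cells in all, and of its 240 nonclassical ones 230 were in a sub-cluster of 241, so that a comparison within a subtype also compares these sub-clusters.

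**Figure D1:**
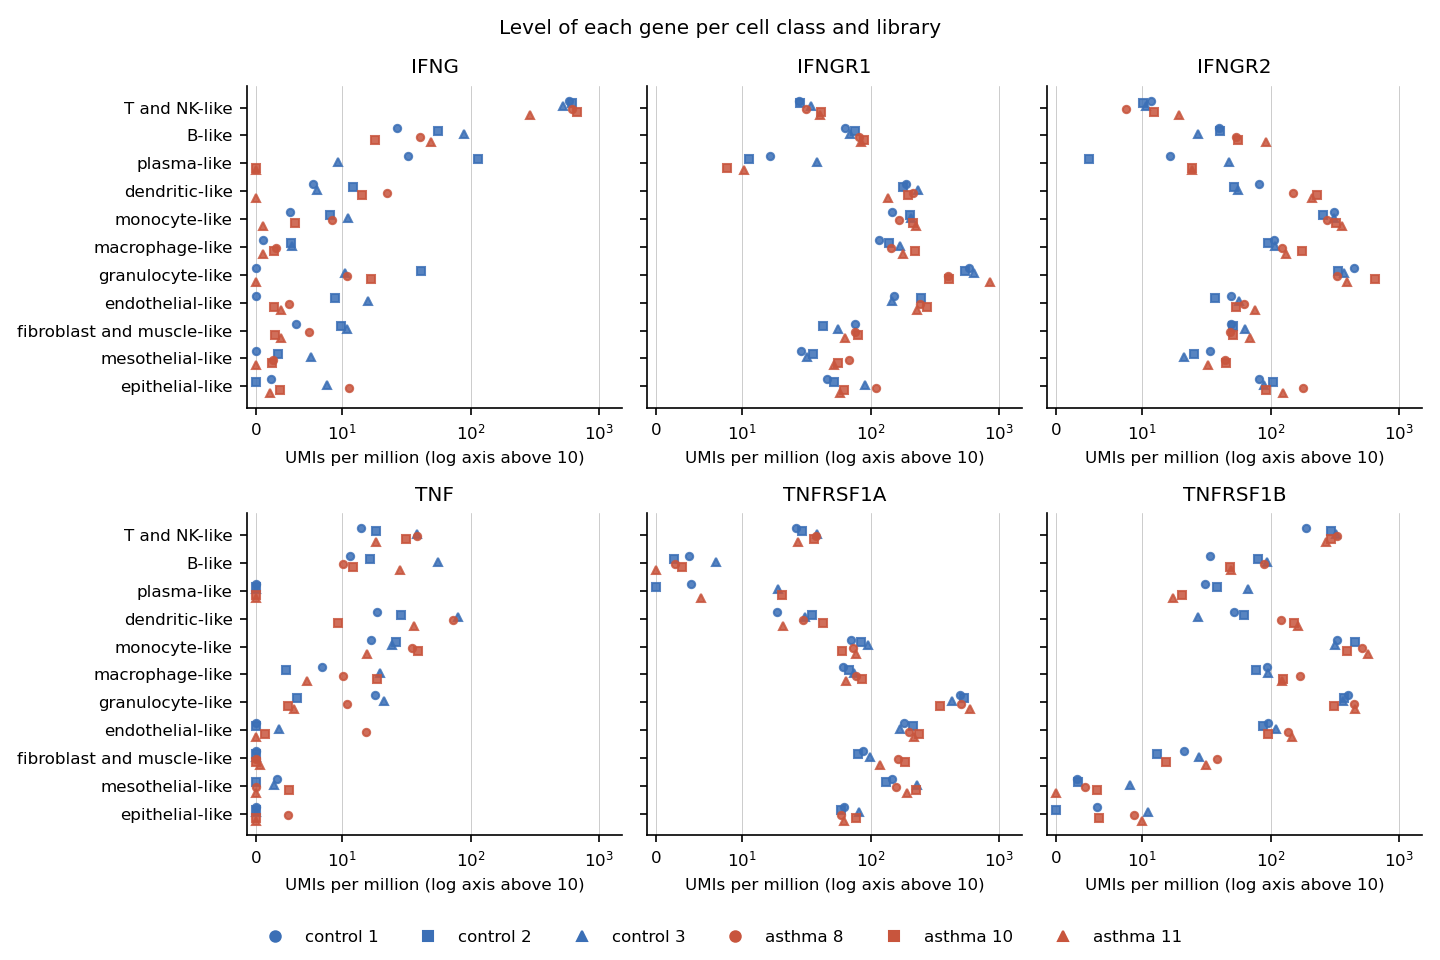
Level of the 6 genes in CPM (log axis above 10) in each cell class, with 1 point for each library that had at least 10 cells of the class (blue, control; red, asthma). IFNG stands out in T and NK-like cells alone, at 289 to 672 CPM, whereas IFNGR1, IFNGR2 and TNFRSF1A are highest in granulocyte-like cells and TNFRSF1B in monocyte-like and granulocyte-like cells.

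IFNGR1, the chain that binds interferon-γ, had UMIs in every class. Its highest level was in granulocyte-like cells, with 585, 540 and 641 CPM in the controls and 397, 409 and 849 CPM in the asthma animals, above the range of any other class. Endothelial-like cells (median 234 CPM), monocyte-like cells (204 CPM), dendritic-like cells (192 CPM) and macrophage-like cells (157 CPM) followed with overlapping ranges. B-like cells lay below them at 62.9 to 89.5 CPM, and T and NK-like cells, which make most of the ligand, at 27.8 to 41.3 CPM. Because macrophage-like cells carry many UMIs each, they held 46.6% of all IFNGR1 UMIs, monocyte-like cells 16.4% and T and NK-like cells 6.11%.

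IFNGR2, the signalling chain, followed a narrower pattern. Its level was 445, 334 and 374 CPM in the granulocyte-like cells of the controls and 327, 645 and 391 CPM in those of the asthma animals, overlapping with monocyte-like cells at 256 to 360 CPM. Dendritic-like, macrophage-like and epithelial-like cells came next with medians of 116, 115 and 98.1 CPM. T and NK-like cells had the lowest median of all classes, 11.3 CPM (8.14 to 19.3), and held 2.43% of the IFNGR2 UMIs in 42.2% of the cells. Among lymphocytes, the IFNGR2 level was 32.6 to 56.2 CPM in CD4 T-like cells, 2.78 to 11.7 CPM in CD8 T-like cells and 3.27 to 5.07 CPM in NK-like cells, so that the CD4 T-like cells did not overlap the others. The NK-like values rest on 5 to 11 UMIs of IFNGR2 in each library.

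TNFRSF1A, the receptor with a death domain, was highest in granulocyte-like cells, with 493, 532 and 427 CPM in the controls and 500, 348 and 593 CPM in the asthma animals. The structural classes came next, with medians of 206 CPM in endothelial-like cells, 175 CPM in mesothelial-like cells and 109 CPM in fibroblast and muscle-like cells. Monocyte-like, macrophage-like and epithelial-like cells had medians of 75.4, 71.3 and 61.9 CPM, and T and NK-like cells 32.8 CPM. In B-like cells TNFRSF1A was near 0, with 18 UMIs in 986 cells.

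For TNFRSF1B, the receptor known from leukocytes, the order of the cell classes was different. Monocyte-like cells had 326, 450 and 314 CPM in the controls and 518, 393 and 568 CPM in the asthma animals, granulocyte-like cells 312 to 449 CPM and T and NK-like cells 188 to 326 CPM, and each of these overlapped the next. Fibroblast and muscle-like, epithelial-like and mesothelial-like cells lay at the bottom of the order with medians of 24.6, 7.06 and 2.98 CPM. Nonclassical monocyte-like cells reached 672 to 882 CPM, above every value of the classical cells (246 to 470 CPM). Regulatory T-like cells had 465, 681 and 681 CPM in the controls and 1174 and 564 CPM in asthma 10 and 11, above every value of CD4 T-like cells (154 to 312 CPM). These class and subtype levels are descriptions, and no test was made between cell types.

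**Figure D2:**
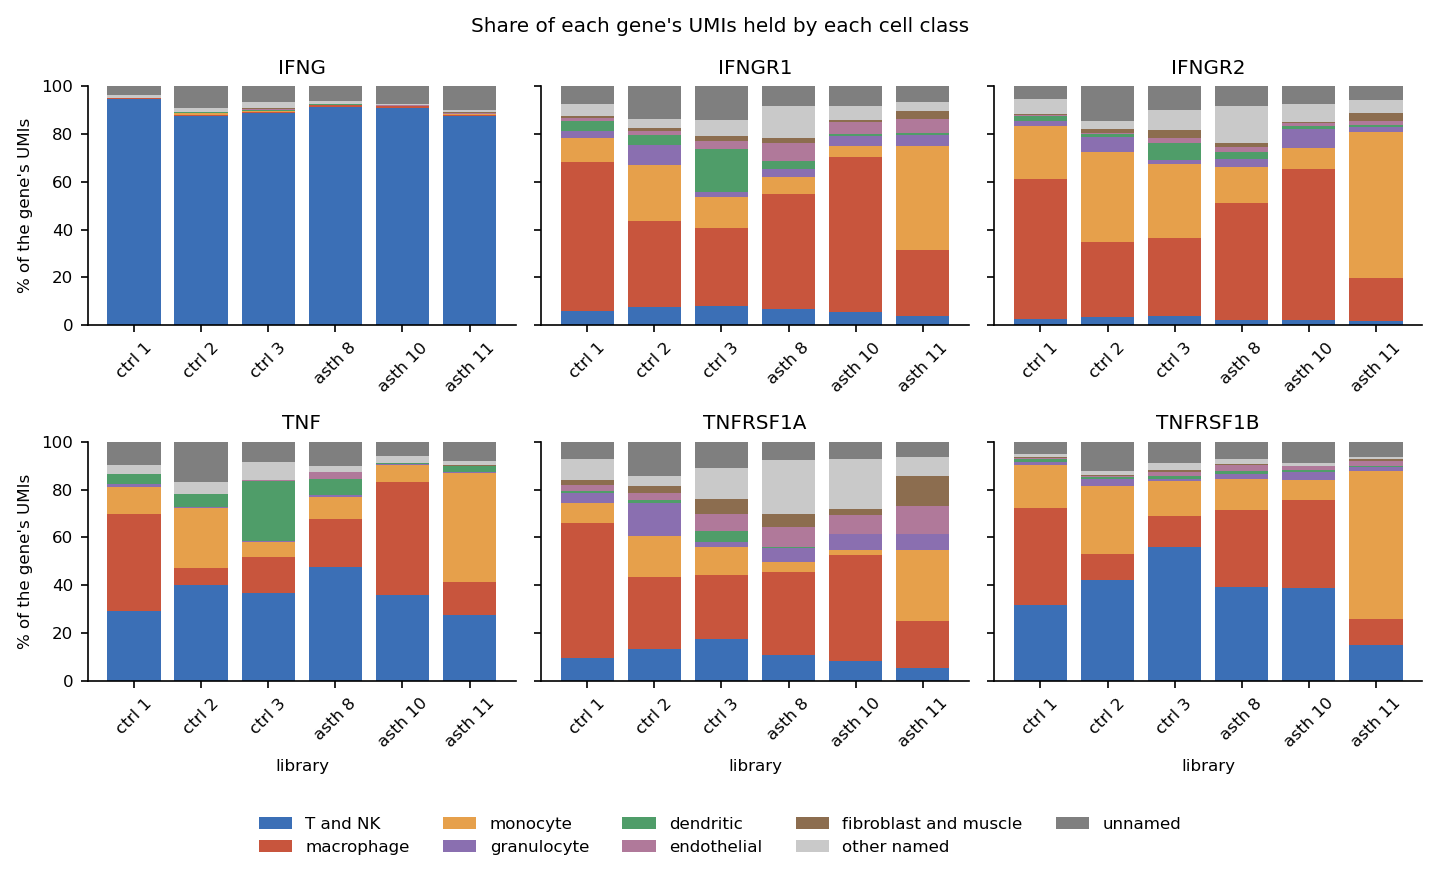
Share of each gene's UMIs (y axis, %) held by each cell class, with 1 bar for each library (x axis). T and NK-like cells hold 87.4% to 94.5% of the IFNG UMIs in every library, whereas the holders of the other 5 genes shift with the number of macrophage-like and monocyte-like cells, as in asthma 11, where monocyte-like cells hold 60.9% of the IFNGR2 UMIs and 62.0% of the TNFRSF1B UMIs.

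The balance within each receptor pair varied between the cell types. TNFRSF1B made up 87.7% to 90.9% of the UMIs of the 2 TNF receptors in T and NK-like cells, 89.7% to 97.5% in B-like cells, 96.0% to 100% in regulatory T-like cells and 76.7% to 88.0% in monocyte-like cells. It made up 53.3% to 68.4% in macrophage-like cells, 41.2% to 47.3% in granulocyte-like cells and 28.5% to 40.6% in endothelial-like cells. In mesothelial-like cells the range was only 0 to 3.6%. For the interferon-γ receptor, IFNGR2 made up 55.8% to 67.9% of the pair's UMIs in monocyte-like cells and 49.8% to 68.5% in epithelial-like cells. In CD8 T-like and NK-like cells it made up 8.70% to 21.4% and 11.4% to 23.1%. These are shares of captured 3′ tags, which may differ in efficiency between 2 genes, so only the differences of a share between cells or groups can be read.

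**Figure D3:**
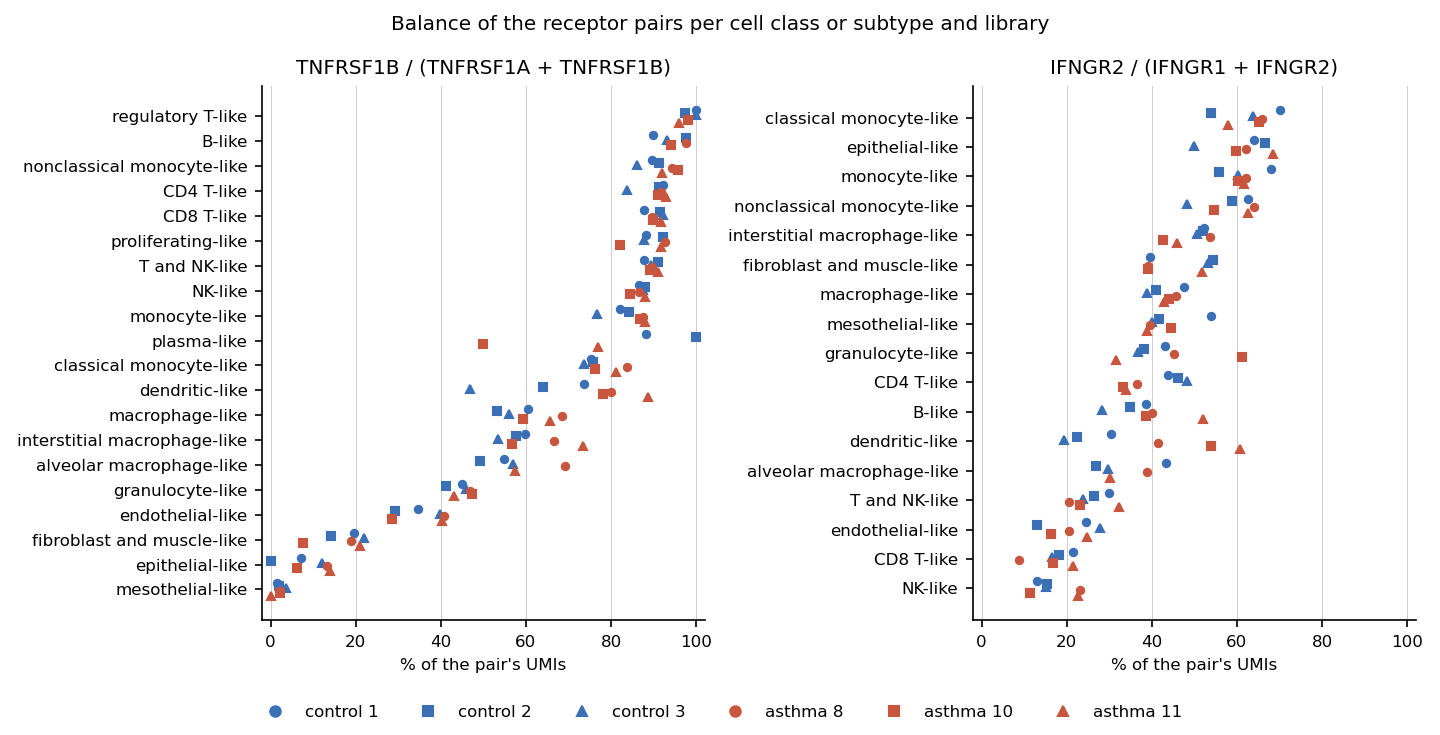
Share of TNFRSF1B in the UMIs of both TNF receptors (left) and of IFNGR2 in the UMIs of both interferon-γ receptor chains (right), in % on the x axis, for each class or subtype on the y axis and each library as a point (blue, control; red, asthma). The TNFRSF1B share runs from regulatory T-like and B-like cells at the top to mesothelial-like cells at 0 to 3.6%, and the asthma points lie to the right of all control points in dendritic-like and monocyte-like cells.

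Asthma and control animals were first compared over whole libraries, which asks how much of each RNA the lung suspension held. The IFNG level was 123, 208 and 174 CPM in the controls and 156, 154 and 49.7 CPM in the asthma animals. Asthma 11 was the lowest and the other 2 lay within the control range. The log2 fold change of asthma over control was −0.62 (SE 0.44, edgeR quasi-likelihood test, adjusted p = 0.611), and without asthma 11 it was −0.24. In such sums, fewer cells of a type and less RNA per cell cannot be told apart.

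The TNF level over whole libraries was 9.73, 13.9 and 31.0 CPM in the controls and 18.7, 18.3 and 10.2 CPM in the asthma animals, with control 3 the highest and the groups overlapping (log2 fold change −0.31, SE 0.42, edgeR adjusted p = 0.802). Without control 3 the sign turned, to 0.23. The TNFRSF1A level was 56.0, 65.1 and 65.6 CPM in the controls and 81.4, 90.4 and 77.5 CPM in the asthma animals. All 3 asthma libraries lay above all controls, but the log2 fold change of 0.28 (SE 0.12) did not pass the test (edgeR adjusted p = 0.417). For the other receptors the groups overlapped, with log2 fold changes of 0.21 (SE 0.18) for IFNGR1, 0.44 (SE 0.26) for IFNGR2 and 0.17 (SE 0.25) for TNFRSF1B. The last 2 were 0.20 and −0.05 without asthma 11. None of the 6 genes was called at an adjusted p under 0.05 and a log2 fold change over 0.25 in size, in a comparison where 0.0839% of the 14306 genes tested were called.

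Within classes and subtypes, no member was called by edgeR either. Such sums no longer depend on the number of cells of a class, but still on the shares of its subtypes. Over the whole libraries, 11 classes and 9 subtypes, 97 tests of a member could be made (29 more fell under the filter on low counts), 0 were called, and 9 (9.28%) had an unadjusted p under 0.05, as had 7.42% of all gene tests in these fits. The value was higher in asthma in 60 of the 97 and lower in 37. DESeq2 called 2 of 97 and had 6 unadjusted p under 0.05, and edgeR without a filter on low counts called 3 of 125 and had 19. Over all genes, 5.35% of the DESeq2 tests and 6.60% of the edgeR tests without a filter had such a p. The background was equally sparse. The share of all genes called was 0.0148% in B-like, 0.342% in fibroblast and muscle-like and 0.037% in mesothelial-like cells, and 0.0% in T and NK-like, dendritic-like, epithelial-like, granulocyte-like, macrophage-like, monocyte-like and plasma-like cells. Among the subtypes it was 0.019% in proliferating lymphocytes, 0.0151% in classical monocyte-like, 0.0231% in nonclassical monocyte-like and 0.0126% in interstitial macrophage-like cells, and 0.0% in CD4 T-like, CD8 T-like, NK-like, regulatory T-like and alveolar macrophage-like cells. Endothelial-like cells, with 5.66% of genes called, were the exception.

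**Figure D4:**
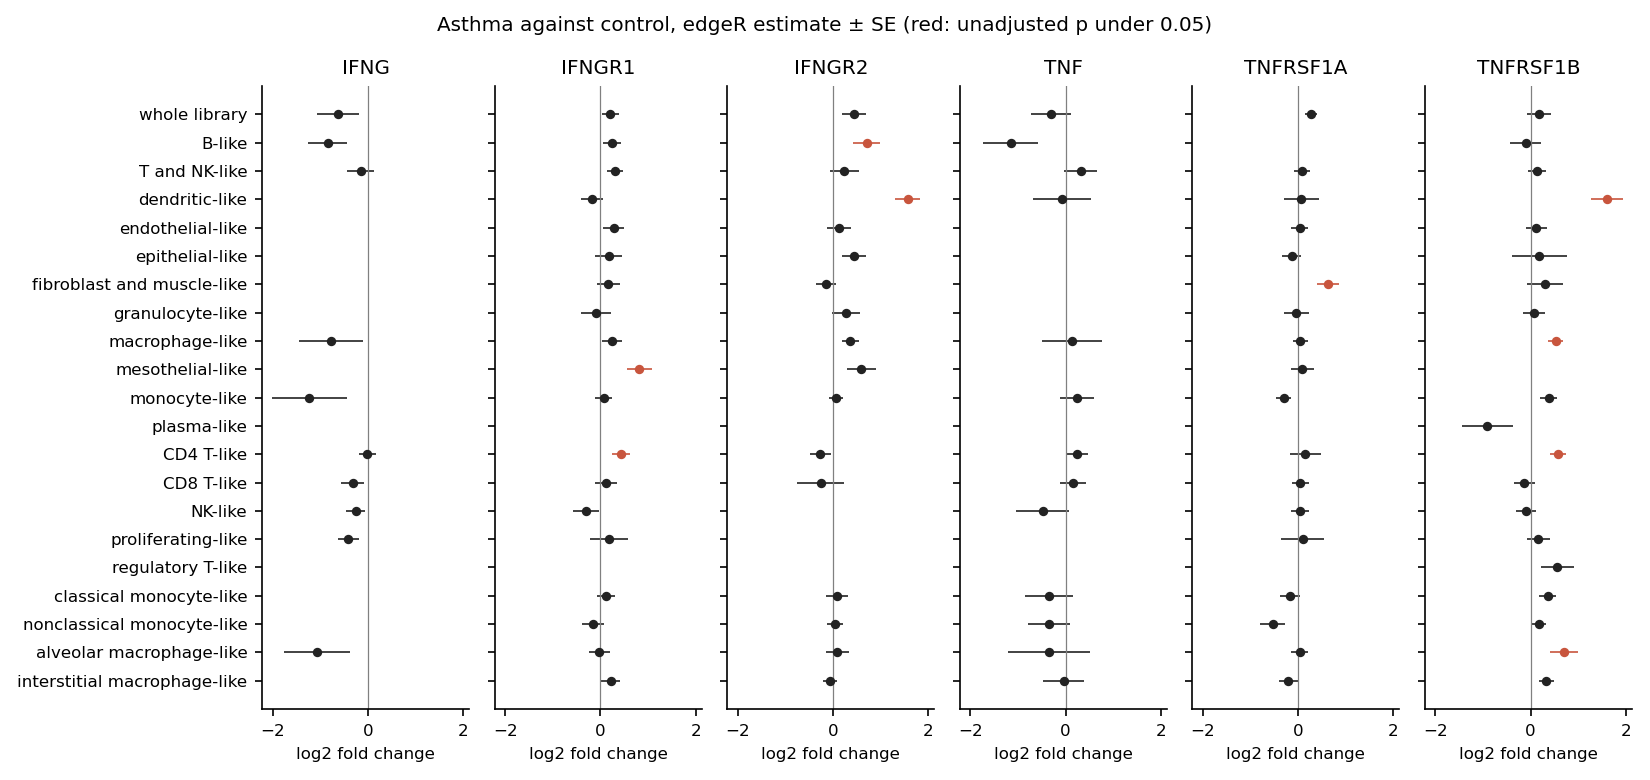
Log2 fold change of asthma over control (x axis, edgeR estimate with its standard error) of each gene in whole libraries and in each class or subtype (y axis), where it could be tested. Red marks an unadjusted p under 0.05, and none passed the adjusted threshold. IFNG lies below 0 in all 10 of its fits, between −1.23 and −0.01.

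For IFNG, all 10 fits gave a log2 fold change below 0, but none had an unadjusted p under 0.05. These fits share libraries and cells and are not independent. In T and NK-like cells the estimate was −0.15 (SE 0.28, edgeR adjusted p = 0.956), and without asthma 11, the lowest library, it turned to 0.14. In CD8 T-like cells it was −0.32 (SE 0.24) and in NK-like cells −0.26 (SE 0.20), both with an edgeR adjusted p of 0.982 or more, and they were −0.09 and −0.14 without asthma 11. CD4 T-like cells, with values of 182, 186 and 173 CPM against 205, 220 and 149 CPM, gave −0.01 (SE 0.17), and 0.14 without asthma 11. In proliferating lymphocytes the 3 asthma values lay below all controls, with a log2 fold change of −0.41 (SE 0.22) and an edgeR adjusted p of 1.0. Asthma 11 was also lowest in the summed level of 14 immediate-early and dissociation genes in its T and NK-like cells, at 4999 CPM against 8031 CPM or more in each other library, with FOS the most abundant at 32.4% of the sum, and the part of this in its IFNG was not tested. These genes were also lower over the asthma group as a whole, 14 of 14 in CD8 T-like (median −0.45), 13 of 14 in NK-like (−0.28) and 14 of 14 in CD4 T-like cells (−0.40), and without asthma 11 in 12, 9 and 10 of 14 (−0.33, −0.08 and −0.25). The sub-clusters of these cells also differed in size, as asthma 11 had 247 of its 349 NK-like cells in a sub-cluster with 37, 37 and 45 control cells and 51 and 53 cells of asthma 8 and 10, and only 6 cells in the CD8 T-like sub-cluster that had IFNG among its leading genes, against 25 or more in each other library.

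The share of cells with an IFNG UMI was compared with each cell thinned to 2000 UMIs, because depth alone changes such a share. In T and NK-like cells it was 46.9%, 47.1% and 44.9% in the controls and 42.1%, 45.7% and 30.8% in the asthma animals (two-sided exact permutation test, p = 0.2, adjusted p = 1 over 38 tests). In CD8 T-like cells it was 54.4%, 56.9% and 55.6% in the controls and 47.4%, 53.3% and 39.2% in the asthma animals, with no overlap (exact permutation p = 0.1, the smallest that 3 against 3 libraries allow). In NK-like cells the thinned shares overlapped, at 60.8%, 55.4% and 50.2% against 42.5%, 50.4% and 51.1%. Without thinning, the asthma shares lay below all controls in T and NK-like, CD8 T-like and NK-like cells (exact permutation p = 0.1 each), but the asthma cells were also shallower, with a median of 3404 UMIs in T and NK-like cells against 3881. Epithelial-like cells, which should lack IFNG, gave 0 to 1.76% with thinning and 0 to 7.25% without it, at medians of 9945.5 and 6681.5 UMIs. A sub-cluster of 58 epithelial cells with T and NK markers had been taken out of that class before. These shares therefore do not measure the full background of stray lymphocyte RNA. Thinning left out 445 of 5311 control and 454 of 4927 asthma cells of the T and NK-like class.

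For TNF, the estimates went in either direction, 5 above and 8 below 0 in 13 fits, and none had an unadjusted p under 0.05. In T and NK-like cells the level was 14.1, 18.6 and 38.7 CPM in the controls and 38.5, 31.5 and 18.5 CPM in the asthma animals (log2 fold change 0.31, SE 0.35, edgeR adjusted p = 0.925), with 1 library of each group out of step with the other 2. With each library left out in turn the estimate ran from 0.07 to 0.80, the highest without control 3 and the lowest without control 1. In monocyte-like cells the level was 16.9, 26.3 and 24.7 CPM against 35.3, 39.0 and 15.7 CPM (0.25, SE 0.36), and asthma 11 was the lowest. Without asthma 11 the estimate was 0.67 (SE 0.24), and with each library left out in turn it ran from −0.01 to 0.67. In macrophage-like cells the values were 7.71, 3.49 and 19.8 CPM against 10.3, 18.6 and 5.93 CPM (0.14, SE 0.62). That estimate ran from −0.43 to 0.93 with each library left out in turn and turned its sign in 3 of 6 cases. The share of T and NK-like cells with a TNF UMI, at 2000 UMIs a cell, was 2.54%, 2.72% and 4.99% in the controls and 5.06%, 4.54% and 3.27% in the asthma animals (exact permutation p = 0.3), and it was 0 in fibroblast and muscle-like cells in all 6 libraries. Without thinning, 684 of the T and NK-like cells (6.68%) had a TNF UMI.

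Whether both cytokines came from the same lymphocytes was asked within each library, by comparing cells with and without an IFNG UMI at 2000 UMIs a cell. Among T and NK-like cells, 4.41% of those with an IFNG UMI had a TNF UMI, against 3.41% of those without, as means of the 6 libraries. The difference was 1.01 percentage points (SD 0.78, n = 6) and had the same sign in 6 of 6 libraries (exact sign-flip permutation p = 0.03125, the smallest that 6 libraries allow, adjusted p = 0.0781 over 5 tests), so that it failed the correction. In CD4 T-like cells the shares were 8.94% and 4.0%, a difference of 4.94 points (SD 3.40) that was also seen in 6 of 6 libraries (exact sign-flip permutation, adjusted p = 0.0781), but it rested on 24 TNF-positive cells among the 267 with an IFNG UMI and 58 among the 1358 without. In CD8 T-like and NK-like cells the difference was 1.36 (SD 1.76) and 1.23 (SD 1.23) points, seen in 5 of 6 libraries each. At 1000 UMIs a cell the CD4 difference turned to −1.06 points.

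**Figure D5:**
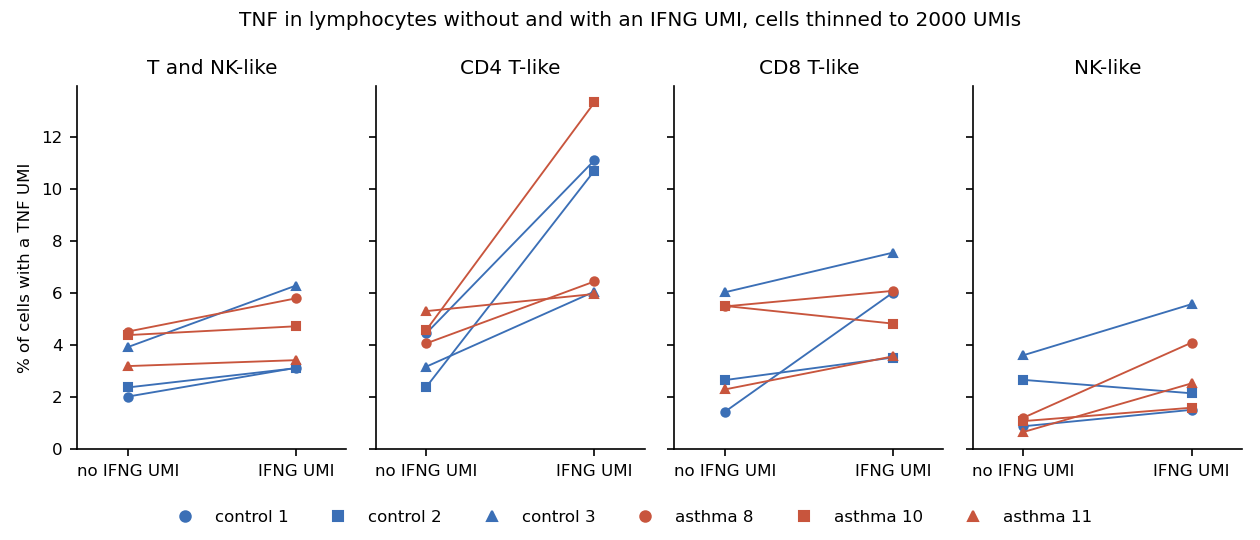
Share of cells with a TNF UMI (y axis, %) among cells without and with an IFNG UMI (x axis), all thinned to 2000 UMIs, with 1 line for each library (blue, control; red, asthma). The line rises in all 6 libraries in T and NK-like and CD4 T-like cells and in 5 of 6 in CD8 T-like and NK-like cells.

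The effector genes of activated lymphocytes were compared in the same way, and none passed the correction. In T and NK-like cells, 12 of 14 had a higher mean share in cells with an IFNG UMI, 6 of them in 6 of 6 libraries. These 6 are named here after their values were seen. Granzyme B (GZMB), a protease of cytotoxic granules, was detected in 90.9% of T and NK-like cells with an IFNG UMI and in 67.6% of those without. The chemokine CCL5 was detected in 87.5% and 64.6%, perforin (PRF1) in 53.0% and 38.6%, granzyme A (GZMA) in 47.1% and 30.8%, granzyme K (GZMK) in 41.3% and 32.1%, and the early activation antigen CD69 in 82.3% and 76.4%. For these 6 genes the difference had the same sign in 6 of 6 libraries (exact sign-flip permutation p = 0.03125 each, adjusted p = 0.182 over 70 tests). The share differs between CD8 T-like, NK-like and CD4 T-like cells for IFNG too, so that these values describe the class as a whole.

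Among the receptors, the lowest adjusted p-values were in dendritic-like cells. IFNGR2 had 81.7, 51.6 and 55.9 CPM in the controls and 150, 230 and 209 CPM in the asthma animals, with every asthma value above every control. The log2 fold change was 1.56 (SE 0.26, edgeR adjusted p = 0.144). TNFRSF1B had 52.3, 62.2 and 27.4 CPM against 120, 153 and 162 CPM, again without overlap, and a log2 fold change of 1.6 (SE 0.33, edgeR adjusted p = 0.237). DESeq2 called both (adjusted p = 0.0011 for IFNGR2 and 0.0139 for TNFRSF1B), where it called 0.752% of the genes it adjusted, and so did edgeR without a filter on low counts, which called 1.21%. The third call without the filter was IFNG in plasma-like cells, which had 47 UMIs in all, with 32.9, 114 and 9.52 CPM in the controls and 0 in asthma 10 and 11. The share of all genes called in that fit is not given here, so that this call cannot be set against it. The dendritic-like class was small, with 76, 38 and 193 cells in the controls and 38, 22 and 17 in the asthma animals, and the 2 asthma-side levels rest on few cells.

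The higher IFNGR2 and TNFRSF1B of the dendritic-like class went with 34 mature dendritic-like cells (markers CCR7, LAMP3, CCL22, FSCN1 and IDO1), a migratory state of dendritic cells after activation. These were 6, 4 and 6 cells in the controls and 9, 6 and 3 in the asthma animals, and as shares of the class 7.89%, 10.5% and 3.11% against 23.7%, 27.3% and 17.6%. Over all libraries together they had an IFNGR2 level of 653 CPM, against 28.2 CPM in type 1, 36.2 CPM in plasmacytoid and 38.3 CPM in the unnamed dendritic-like cells, and they held 264 of the 412 IFNGR2 UMIs of the class. For TNFRSF1B the levels were 356, 15.2, 93.6 and 35.5 CPM in the same order, and the mature cells held 144 of 280 UMIs. Without the mature cells, IFNGR2 had 45, 13.3 and 33.2 CPM in the controls and 28.3, 7.49 and 61.7 CPM in the asthma animals, and the log2 fold change was −0.01 (SE 0.54, edgeR adjusted p = 0.998). For TNFRSF1B it was 1.19 (SE 0.54, edgeR adjusted p = 0.9), with 37.8, 36.6 and 17.0 CPM against 37.7, 37.5 and 142 CPM, so that asthma 11 alone lay above the controls. Without the type 1 cells, whose share also differed, the estimates were 1.32 (SE 0.22) for IFNGR2 and 1.34 (SE 0.28) for TNFRSF1B. These subdivisions were made after the values of the class had been seen.

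TNFRSF1B was also higher in the asthma animals in several other leukocytes, without passing the adjusted threshold. In CD4 T-like cells it was 154, 190 and 166 CPM in the controls and 312, 264 and 232 CPM in the asthma animals, with no overlap (log2 fold change 0.58, SE 0.16, unadjusted p = 0.00307, edgeR adjusted p = 0.455). In macrophage-like cells it was 94.5, 77.0 and 95.5 CPM against 168, 125 and 123 CPM, with no overlap (0.52, SE 0.16, edgeR adjusted p = 0.782), and without the alveolar macrophage-like cells the estimate was 0.44 (SE 0.17) and the groups overlapped, with control 3 at 129.7 CPM above asthma 10 at 125.2 CPM. The cells left then included 2 unnamed sub-clusters that came almost wholly from 1 library each, with 511 of 541 cells from control 1 and 256 of 268 from asthma 10, and whose nearest markers were those of alveolar macrophages. Classical monocyte-like cells had 246, 318 and 332 CPM against 470, 348 and 368 CPM and nonclassical ones 696, 773 and 672 CPM against 882, 825 and 784 CPM. In both subtypes the asthma values lay above all controls, with log2 fold changes of 0.36 (SE 0.18) and 0.17 (SE 0.16). Over all 20 fits of TNFRSF1B, 16 estimates were above 0 and 4 below, with a median of 0.18. In CD8 T-like and NK-like cells the groups overlapped and the estimates were −0.13 (SE 0.22) and −0.09 (SE 0.20).

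For the interferon-γ receptor chains, too, no other difference passed. IFNGR1 was 41.7, 41.9 and 60.2 CPM in the CD4 T-like cells of the controls and 64.1, 74.1 and 64.4 CPM in those of the asthma animals (log2 fold change 0.44, SE 0.19, edgeR adjusted p = 0.723). In mesothelial-like cells, which line the lung surface, it was 29.0, 35.9 and 32.2 CPM against 67.8, 56.0 and 51.6 CPM (0.82, SE 0.27, edgeR adjusted p = 0.999). One mesothelial-like sub-cluster led by NR4A1 and IL6 held 1, 5 and 4 control and 42, 94 and 2 asthma cells, and another led by CSRP2 and PLA2G2A 3, 10 and 7 against 138, 10 and 7, and their part in the IFNGR1 level was not tested. IFNGR2 was 39.7, 40.2 and 27.3 CPM in the B-like cells of the controls and 54.3, 56.1 and 91.5 CPM in those of the asthma animals (0.71, SE 0.28, edgeR adjusted p = 0.801). None of these groups overlapped and none passed the adjusted threshold. In monocyte-like cells, where IFNGR2 was precisely measured with 5664 UMIs, the estimates were 0.06 (SE 0.15) for IFNGR2 and 0.07 (SE 0.17) for IFNGR1, and −0.016 and −0.0030 without asthma 11.

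For TNFRSF1A, the estimates of 2 kinds of cells had opposite signs, and neither passed the test. In fibroblast and muscle-like cells it was 87.5, 79.3 and 98.9 CPM in the controls and 164, 185 and 119 CPM in the asthma animals (log2 fold change 0.63, SE 0.24, edgeR adjusted p = 0.385). The makeup of this class differed as well, with 1, 0 and 1 pericyte-like cells in the controls against 7, 25 and 124 in the asthma animals and 31, 49 and 131 cells of the fibroblast-like sub-cluster against 20, 18 and 3, and its part in the TNFRSF1A level was not tested. In nonclassical monocyte-like cells it was 79.9, 73.5 and 109 CPM in the controls and 53.1, 37.5 and 68.5 CPM in the asthma animals (−0.53, SE 0.26, edgeR adjusted p = 0.831, and −0.87 without asthma 11, edgeR adjusted p = 0.706). Neither pair of groups overlapped. In granulocyte-like and endothelial-like cells, the classes with most TNFRSF1A, the estimates were −0.03 (SE 0.25) and 0.03 (SE 0.18).

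The receptor shares, which need no scaling between libraries, were compared in the same way. In monocyte-like cells TNFRSF1B made up 82.2%, 84.3% and 76.7% of the TNF receptor UMIs in the controls and 87.6%, 86.8% and 88.0% in the asthma animals. In dendritic-like cells the share was 73.6%, 64.1% and 46.8% against 80.0%, 78.0% and 88.6%. Both classes showed no overlap, with the smallest p that the design allows (exact permutation p = 0.1, adjusted p = 0.420 over 21 tests). Over all cells together the share was 68.1%, 76.1% and 72.2% in the controls and 70.2%, 63.7% and 77.8% in the asthma animals (exact permutation p = 0.8). IFNGR2 made up 30.3%, 22.5% and 19.3% of the interferon-γ receptor UMIs in control dendritic-like cells and 41.5%, 53.9% and 60.6% in those of the asthma animals. In CD4 T-like cells it went the other way, with 43.9%, 46.1% and 48.3% in the controls and 36.6%, 33.3% and 34.0% in the asthma animals. For both, the exact permutation p was 0.1 and the adjusted p 0.9 over 18 tests. Without the 34 mature cells, the groups of the dendritic-like class overlapped in both shares. The TNFRSF1B share was then 70.3%, 50% and 34.9% in the controls and 55.2%, 71.4% and 88.5% in the asthma animals, and the IFNGR2 share was 20.5%, 6.61% and 12.7% against 12.1%, 5.88% and 30.3%.

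The other genes of the pathways were followed by fixed lists, over the same fits. Of the interferon-γ signal relay (JAK1, JAK2 and others, 11 genes), 1 of 177 tests was called. Of the interferon-γ target genes (16 genes in the files) 0 of 221 were called, of the inducers and regulators of IFNG 0 of 92, of the TNF receptor complex and its relay 0 of 386, and of the shedding and feedback inhibitors of TNF 0 of 206. Of the TNF target genes 1 of 151 tests was called, of the TNF family relatives 1 of 150, of the effector genes of activated lymphocytes 1 of 186, and of the immediate-early and dissociation genes 2 of 279. All these calls were in endothelial-like cells, where 5.66% of all 7826 genes tested were called, and NR4A1 counts in 2 lists. Without asthma 11, 1 interferon-γ target in endothelial-like cells and 1 TNF target in fibroblast and muscle-like cells gained a call. Fits then left with a sole asthma library were not read.

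The CPM values of these called genes carry the library scaling of the edgeR fit and are not shares of all UMIs of the class. In endothelial-like cells, JAK1, the kinase bound to IFNGR1, rose from 157, 171 and 147 CPM in the controls to 282, 309 and 321 CPM in the asthma animals (log2 fold change 0.95, SE 0.18, edgeR adjusted p = 0.0188). TNFSF10, the death ligand TRAIL of the TNF family, rose from 1643, 1705 and 1240 CPM to 3042, 3060 and 3344 CPM (1.04, SE 0.19, edgeR adjusted p = 0.0186). PTGS2, the inducible cyclooxygenase and a TNF target, fell from 135, 63.5 and 137 CPM to 10.2, 11.4 and 9.02 CPM (−3.49, SE 0.32, edgeR adjusted p = 0.00325). NR4A1, an immediate-early nuclear receptor, and HSPH1, a heat shock protein, also fell (−1.91, SE 0.40, edgeR adjusted p = 0.0258 and −0.93, SE 0.23, edgeR adjusted p = 0.0424). PTGS2 was called whichever library was left out. JAK1 and TNFSF10 were not called without control 1 or 3 or asthma 10 or 11, NR4A1 without control 1 or any asthma library, and HSPH1 without any 1 library, though every direction held. In these cells 13 of 14 immediate-early and dissociation genes were lower (median −0.55, against 0.02 over all genes), and the part of tissue handling in the calls was not tested. The members themselves did not pass there, with estimates of 0.28 (SE 0.22) for IFNGR1, 0.13 (SE 0.25) for IFNGR2, 0.03 (SE 0.18) for TNFRSF1A and 0.12 (SE 0.22) for TNFRSF1B. Without asthma 11 they were 0.35, 0.01, 0.05 and 0.02. The endothelial-like cells numbered 45, 36 and 104 in the controls and 258, 237 and 347 in the asthma animals, and capillary endothelial-like cells 8, 13 and 6 against 93 to 123, and the part of this shift in these calls was not tested.

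Of the target genes of interferon-γ, 8 were higher and 8 lower over whole libraries, with a median log2 fold change of 0.02, against −0.02 over all genes tested. In macrophage-like cells 11 of 16 were higher (median 0.26, against 0.00 over all genes), but in their alveolar and interstitial subtypes 5 of 13 and 6 of 13 were (medians −0.08 and −0.11). Without asthma 11 it was 15 of 16 in the class and 9 of 13 in interstitial macrophage-like cells (medians 0.31 and 0.15). The class held a sub-cluster led by IFI27 and IFIT1, with 256 of its 268 cells from asthma 10. Another, led by the targets IDO1, CXCL11 and CXCL10, held 126, 63 and 39 control cells and 88, 208 and 39 cells of asthma 8, 10 and 11. The part of these sub-clusters in the class values was not tested. In alveolar macrophage-like cells, of which asthma 10 had only 7, that left asthma 8 as the sole asthma library, and no reading was made. The median was 0.42 in endothelial-like cells and −0.28, −0.50 and −0.52 in dendritic-like, granulocyte-like and epithelial-like cells. Without asthma 11 these were 0.51, −0.04, −0.48 and −0.31. In epithelial-like cells 14 of 14 immediate-early and dissociation genes were lower too (median −0.82). The most abundant interferon-γ target gene, CD74, the invariant chain of MHC class II, had 5470, 7748 and 9021 CPM in the macrophage-like cells of the controls and 7590, 10422 and 8207 CPM in those of the asthma animals (log2 fold change 0.24, SE 0.22). The groups overlapped. In the relay list, IRF1, a transcription factor induced by interferon-γ, had 500, 414 and 416 CPM in control T and NK-like cells and 362, 457 and 237 CPM in those of the asthma animals (−0.33, SE 0.23), with asthma 11 again the lowest. Of the inducers and regulators of IFNG, RUNX3, a transcription factor of killer lymphocytes, had 187, 188 and 199 CPM in control T and NK-like cells and 188, 171 and 167 CPM in those of the asthma animals (−0.13, SE 0.12).

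The estimates of the TNF target genes were mostly below 0 in monocytes. In other classes they went either way. In fibroblast and muscle-like cells 6 of 7 were higher (median 0.46, or 0.82 without asthma 11), and in epithelial-like cells 8 of 10 were lower (median −0.62). In classical monocyte-like cells 11 of 11 tested genes were lower, with a median log2 fold change of −1.12 against −0.01 over all genes, and in monocyte-like cells as a whole 10 of 12 (median −1.10 against 0.01). None was called. Without asthma 11, whose classical cells formed a sub-cluster of their own, 9 of 11 were lower with a median of −0.52, and in monocyte-like cells 10 of 13 with a median of −0.66. The sub-cluster that held most classical cells of the other libraries was led by CXCL3, CXCL8 and S100A9. CXCL8, a chemoattractant of neutrophils, had 2479, 855 and 1130 CPM in the classical monocyte-like cells of the controls and 334, 1166 and 179 CPM in those of the asthma animals. Asthma 10 lay within the control range, and the log2 fold change was −1.46 (SE 0.58, edgeR adjusted p = 0.964). SOD2, a mitochondrial antioxidant enzyme that TNF induces, had 2083, 1318 and 1809 CPM against 1227, 2664 and 842 CPM (−0.15, SE 0.34). In the same cells the median of the 14 immediate-early and dissociation genes was −0.04, with 8 of 14 lower (0.23 and 5 of 14 without asthma 11), and the estimate of TNF itself was −0.35 (SE 0.50), or 0.49 (SE 0.41) without asthma 11. In alveolar and interstitial macrophage-like cells 9 of 11 and 6 of 8 TNF targets were lower, both with a median of −0.87, but there 13 of 14 and 14 of 14 of the immediate-early and dissociation genes were lower too (medians −0.43 and −0.67), and the part of tissue handling in these values was not tested. The alveolar fit held only 2 asthma libraries, because asthma 10 had 7 of these cells.

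Of the other lists, the TNF receptor complex and relay stayed near all genes in T and NK-like cells (median 0.03) and in macrophage-like cells (0.06, or 0.13 without asthma 11). Its median was 0.47 in dendritic-like cells (12 of 18 higher), 0.32 in endothelial-like cells (16 of 22) and −0.17 in mesothelial-like cells (2 of 11). The makeup of these classes differed between the groups, as given above, and the part of this in the medians was not tested. The most abundant gene of the relay was BIRC3, an inhibitor of cell death recruited to the TNF receptors. It had 34.8, 30.6 and 28.8 CPM in the macrophage-like cells of the controls. In those of the asthma animals it had 59.6, 46.4 and 32.6 CPM (0.56, SE 0.22, edgeR adjusted p = 0.868), and the groups overlapped. NFKB1, the precursor of a subunit of NF-κB, had an estimate of 0.22 (SE 0.21) there. Of the feedback inhibitors, ZFP36, which makes TNF mRNA unstable, had T and NK-like levels of 1379, 1033 and 1070 CPM among the controls and 994, 1297 and 759 CPM among the asthma animals (−0.19, SE 0.22). NFKBIA, the inhibitor of NF-κB, had an estimate of 0.03 (SE 0.30) in the same cells. Among the relatives of TNF, 11 of 13 were higher in T and NK-like cells (median 0.28), and 9 of 13 without asthma 11 (median 0.17), which had the largest share of CD4 T-like cells. Within CD4 T-like cells 4 of 10 were higher (median −0.04) and within CD8 T-like cells 7 of 12 (median 0.19), or 6 of 12 without asthma 11 (median 0.0054). Within NK-like cells 5 of 7 were higher (median 0.22), and also 5 of 7 without asthma 11 (median 0.35). In T and NK-like cells as a whole LTB, a subunit of lymphotoxin, had 447, 455 and 337 CPM in the controls and 429, 502 and 779 CPM in the asthma animals (0.46, SE 0.24, edgeR adjusted p = 0.775).

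The genes whose levels over 64 sums of a class and a library were most like those of each member were found among 16164 genes with a symbol. For IFNG these were KLRD1 (Pearson r = 0.958), TRAC (0.950) and SIRPG (0.949), which are genes of T and NK cells. For TNF they were TSPOAP1 (0.826), IKZF1 (0.8) and ITGB2 (0.799). For IFNGR1 they were RAP1A (0.880) and RAC1 (0.876), and for IFNGR2 BRI3 (0.861), GABARAP (0.858) and IL1RN (0.855). For TNFRSF1A they were GABARAPL1 (0.898), WDFY3 (0.896) and LAMP2 (0.865), and for TNFRSF1B ADGRE5 (0.890), GLRX (0.882) and SH3BGRL3 (0.877). The sums of a library share its sequencing run and those of a class share its cells, so that these values are descriptions.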

How the data were processed

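Lung cells of 6 monkeys were profiled with 10x 3′ v3 chemistry. The authors aligned and counted the reads with Cell Ranger (version 2.1.1 in the submitters' processing notes, 4.0.0 in the file headers, and another version in the study's methods), and the values are the raw UMI counts per gene and barcode that the authors deposited, 217695595 UMIs in all and 29014556 to 41489879 per library. Per the study's methods the reads were aligned to the macFas6 genome.

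A barcode was taken as a cell if its genes numbered between 500 and 5000 (both excluded), its UMIs reached 500 and no more than 25% of them were mitochondrial. Cells were clustered (scanpy 1.11.5, leidenalg 0.10.2, 2000 variable genes without the members, 10 principal components, 20 neighbours, resolution 0.8, sub-clusters 0.5) and named from at least 3 markers. Sub-clusters with markers of a second class were taken out of their class and left unnamed, whereas those that only lacked a subtype name stayed in it. The thresholds for naming were set after seeing the data, and shares may differ from the study's because the names were rebuilt. Scrublet's own threshold marked 10 cells (0.0413%), which is not a working call. No cell was therefore removed by its doublet score, and the 793 highest-scoring cells were removed as an alternative.

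UMIs were summed per library and class (at least 10 cells) and tested with edgeR 4.0.16 (TMM, filterByExpr, quasi-likelihood test, Benjamini-Hochberg over all genes of a fit, R 4.3.3). A call needed an adjusted p under 0.05 and a log2 fold change over 0.25 in size. DESeq2 1.42.0 was an alternative. Shares were compared by two-sided exact permutation tests over libraries, with Benjamini-Hochberg adjustment over each family. Nothing states that the labels' replicate numbers pair control with asthma animals. A floor is 3 UMIs, and floors cover counting error only.

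The genes named in the text were the 6 members, of each pathway list the called genes (up to 2 per fit) and the 2 with the highest mean level, of which those in the classes described are given, and the 3 genes most like each member by Pearson correlation of log2(CPM + 10). One of the latter is not reported here. The lymphocyte genes detected more often with IFNG, the subdivisions of dendritic-like and macrophage-like cells, and the list values without asthma 11 were chosen after their values were seen. The members and lists were chosen with earlier results of these data known. Scripts were tested on simulated data.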

Additional observations from a re-analysis of the deposited data

Results flagged for a closer look

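Among 1158 pairs of cell classes or subtypes with the same measure, 3 had all asthma libraries above all controls in the one and below them in the other. These pairs were picked for that pattern, in a set where 15 of 108 levels and 6 of 32 receptor shares did not overlap between the groups. A single measure has an exact permutation p of 0.1 for such a lack of overlap, and its share over all genes was not counted. By another measure, edgeR called 0.342% of genes in fibroblast and muscle-like and 0.0231% in nonclassical monocyte-like cells. Differences are mean values of asthma minus control. The TNFRSF1A level was higher by 67.6 CPM in fibroblast and muscle-like cells and fell by 34.3 CPM in nonclassical monocyte-like cells, a gap of 101.9 CPM. It was higher by 14.1 CPM in the unnamed cells, a gap of 48.42 CPM to the nonclassical monocyte-like cells. The IFNGR2 share of the interferon-γ receptor UMIs was higher by 27.9 percentage points in dendritic-like cells and fell by 11.4 points in CD4 T-like cells, a gap of 39.38 points. In the dendritic-like cells this share overlapped between the groups without the 34 mature cells. For each gap the exact permutation p was 0.1, the smallest that 3 against 3 libraries allow, so no gap could pass the threshold. Dixon's test for a single outlying library was not applied, since each group had 3 libraries.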

How the results depend on the processing

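Of 494 values under alternatives for 43 results, 448 kept their direction and their side of the threshold (or, for counts and values with no test, stayed near), 20 lost and 8 gained a call, 2 moved and 16 changed sign. Among the members in named classes, edgeR called 0, DESeq2 called 2 and edgeR without a filter on low counts called 3. With at most 10% mitochondrial UMIs, the TNF difference between T and NK-like cells with and without an IFNG UMI was 1.305 points and passed the correction (exact sign-flip permutation, adjusted p = 0.0391), IFNG in CD4 T-like cells was 0.0818 and TNF in monocyte-like cells −0.0076 (log2 fold changes). TNF in macrophage-like cells was −0.036 with at least 200 genes and no maximum. IFNGR2 in dendritic-like cells was −0.0078 without the mature cells, an alternative chosen after seeing the data, and the CD4 T-like co-detection difference was −1.06 points at 1000 UMIs. Leaving out each library in turn, the log2 fold change ran from −0.58 to 0.23 for TNF and from −0.054 to 0.39 for TNFRSF1B in whole libraries, from −0.41 to 0.14 for IFNG in T and NK-like cells, from −0.14 to 0.14 for IFNG in CD4 T-like cells, from −0.43 to 0.93 for TNF in macrophage-like cells and from −0.012 to 0.67 for TNF in monocyte-like cells. The TNFRSF1B share over all cells differed by −5.20 to 1.87 points. The cause of these changes was not tested. No paired analysis was possible because the groups share no replicate numbers. Among the members, TNF had the fewest UMIs in cells (2944).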

Other observations

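The 10898 barcodes outside the thresholds held 19.8% of all UMIs, but 31.5% of the TNF UMIs (1352). The TNF share outside was 33.6%, 37.9% and 25.8% in controls 1, 2 and 3 and 36.9%, 32.2% and 20.1% in asthma 8, 10 and 11. For IFNG it was 4.95%, for IFNGR1 16.8%, for IFNGR2 16.2%, for TNFRSF1A 22.4% and for TNFRSF1B 13.6%.

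A monocyte-like sub-cluster of 339 cells that could not be named was led by CXCL9, CXCL11, APOBEC3A, CALHM6 and CXCL10, of which the chemokines are known targets of interferon-γ. It held 20, 40 and 27 cells in the controls and 36, 12 and 204 cells in asthma 8, 10 and 11, so that most of its cells came from the library in which monocyte-like cells were most frequent.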
